A study of Mus musculus with 42 samples.

Results

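The MHC class I antigen presentation pathway was followed through 10 genes, H2-K1, H2-D1, B2m, Tap1, Tap2, Tapbp, Psmb8, Psmb9, Psmb10 and Nlrc5, which were listed by their known roles with earlier results of these data known. They are 10 of 21897 protein-coding genes, and all 10 passed the filter on low values in every comparison. Chromatin immunoprecipitation with sequencing (ChIP-seq) was done with antibodies against RNA polymerase II (Pol II), the enzyme that transcribes protein-coding genes, and against H3K27ac, the acetylated form of histone H3 found at promoters and enhancers in use. The cells were bone marrow-derived macrophages (BMDMs) from male C57Bl6/J mice aged 6 to 12 weeks, grown from marrow in medium conditioned by L929 cells, and were left untreated (0 h) or given 100 ng/ml lipopolysaccharide (LPS), a bacterial wall component that activates macrophages, for 1 h or 18 h. Wild-type (WT) mice were compared with littermates lacking Nur77, a nuclear receptor encoded by Nr4a1.

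Each of the 6 groups (WT and KO, each at 0, 1 and 18 h) held 3 libraries per antibody and 1 input library without immunoprecipitation, 42 libraries in all. The Nur77 deletion was made in the whole body with Cre driven by the CMV promoter on a floxed Nr4a1 allele. The labels of the KO libraries name only "cre", whereas the methods describe mice from which Cre had been bred out, so an effect of Cre and one of the deletion cannot be told apart here. The methods speak of biological replicates, but neither they nor the labels say whether the 3 libraries of a group came from separate mice or cultures, so p-values measure the spread between these libraries. All 7 macrophage markers were found in all 18 libraries of each antibody. The fibroblast markers Col1a1, Col3a1 and Dcn were listed at 0 in all 36 ChIP libraries, and so were Cd3e, Cd3g and Cd8a among the 4 T cell markers; the other, Cd4, had up to 56.4 normalized tags in Pol II and none in H3K27ac. Of the 5 dendritic cell markers 2 were found in all 18 libraries of each antibody, with summed levels of 268 to 1379 normalized tags in Pol II and 247 to 950 in H3K27ac; in Pol II at 1 h the sum was 1172 to 1379 in WT and 1154 to 1303 in KO. The 3 B cell markers summed to 41.4 to 161 in Pol II and 106 to 363 in H3K27ac. The neutrophil, NK cell and erythroid lists each summed to at most 45.3 in Pol II and 179 in H3K27ac. The part of these cell types in the results was not tested. Depth was 21.7 M to 36.1 M tags for Pol II and 13.5 M to 55.4 M tags for H3K27ac, where KO libraries (23.6 M to 55.4 M) were deeper than WT libraries (13.5 M to 31.1 M). As a check of the labels, Pol II over Nr4a1 at 0 h was 189, 188 and 208 normalized tags in WT and 87.8, 76.1 and 70.2 in KO. The 3 KO libraries all lay below the 3 WT libraries (log2 difference -1.22, adjusted p = 1.2e-04), although with a pseudocount of 1 the difference was not called (-1.32, adjusted p = 0.20).

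MHC class I molecules show peptides from inside the cell to CD8 T cells. Proteins are cut by the proteasome, in which LPS- and interferon-inducible subunits replace the constitutive ones to form the immunoproteasome. The peptides are carried into the endoplasmic reticulum by the transporter associated with antigen processing (TAP), loaded with the help of tapasin onto a heavy chain paired with beta-2-microglobulin, and brought to the surface. NLRC5 is a coactivator that binds class I promoters through other factors and raises the transcription of most of these genes. In macrophages the pathway is a known target of interferon signalling that follows LPS.

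Values are normalized tags, that is, tags per 10 M tags of a library. The Pol II value of a gene covers its body with 500 bp on each side, and its H3K27ac value covers 2500 bp on each side of its start. Positions are those of GENCODE vM21 on GRCm38, the assembly behind mm10. The heavy chain genes H2-K1 (chr17:33996017-34000347, minus strand) and H2-D1 (chr17:35262730-35267499, plus strand) and the tapasin gene Tapbp (chr17:33915899-33929292, plus strand) lie in the major histocompatibility complex on chromosome 17. Within that complex Psmb9 (chr17:34181987-34187764, minus strand), Tap1 (chr17:34187553-34197225, plus strand), Psmb8 (chr17:34197721-34201454, plus strand) and Tap2 (chr17:34203527-34216321, plus strand) follow each other in 1 cluster. B2m lies on chromosome 2 (chr2:122147686-122153083, plus strand), and Psmb10 (chr8:105935735-105938444, minus strand) and Nlrc5 (chr8:94434356-94527272, plus strand) on chromosome 8.

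Several of these windows share signal with neighbours, because the deposited regions carry no strand and were shared out by overlap. The tags of a region count as evenly spread over its length. A window inside 1 region, also one of 500 bp on each side of a start, therefore holds the mean density of that region. The B2m Pol II window lay wholly inside that of Patl2. The H3K27ac windows of Tap1 and Psmb9, which start from opposite strands of 1 shared promoter, overlapped by 95.8%, so their H3K27ac values are nearly 1 measurement. The Tapbp windows overlapped that of Zbtb22 by 30.7% for Pol II and by 99.9% for H3K27ac. H2-K1 and H2-D1 resemble other class I genes in sequence, and how reads that match several of these genes were placed is not given in the sources used here, so their values are uncertain to that extent.

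Of the 10 genes, 8 matched an entry in the RefSeq promoter table (GRCm38.p6), which gives 250 bases before to 50 bases after a start site. The promoters of B2m, H2-K1, H2-D1 and Psmb8 are shown because they are those of the 8 with an ISRE, NF-kB or GAS match, and that of Tap1 because it lies in the start region shared with Psmb9. Matches to the motifs are in capitals. The motifs searched on both strands were GAAANNGAA for the interferon-stimulated response element (ISRE), TTCNNNGAA for the gamma-activated site (GAS), GGANNNNCC for NF-kB, TGANTCA for AP-1 and CCAAT for NF-Y, and no match of one motif shared bases with a match of another. Only NF-kB matches shared bases with each other, 2 in H2-K1, 2 in H2-D1 and 2 in B2m, where the same bases match on both strands.
B2m, chr2:122147437-122147736, plus strand: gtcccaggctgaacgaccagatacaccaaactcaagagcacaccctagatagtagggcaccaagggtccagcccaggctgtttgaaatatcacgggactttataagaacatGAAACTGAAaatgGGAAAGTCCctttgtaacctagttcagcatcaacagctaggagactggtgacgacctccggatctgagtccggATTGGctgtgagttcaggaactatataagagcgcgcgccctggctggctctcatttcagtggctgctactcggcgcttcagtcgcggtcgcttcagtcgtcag
H2-K1, chr17:34000298-34000597, minus strand: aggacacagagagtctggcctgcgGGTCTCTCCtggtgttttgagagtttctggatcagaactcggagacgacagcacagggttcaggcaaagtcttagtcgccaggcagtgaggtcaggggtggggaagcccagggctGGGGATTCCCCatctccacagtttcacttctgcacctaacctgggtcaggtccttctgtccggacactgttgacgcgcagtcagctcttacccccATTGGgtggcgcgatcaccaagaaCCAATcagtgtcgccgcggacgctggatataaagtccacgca
H2-D1, chr17:35262844-35263143, plus strand: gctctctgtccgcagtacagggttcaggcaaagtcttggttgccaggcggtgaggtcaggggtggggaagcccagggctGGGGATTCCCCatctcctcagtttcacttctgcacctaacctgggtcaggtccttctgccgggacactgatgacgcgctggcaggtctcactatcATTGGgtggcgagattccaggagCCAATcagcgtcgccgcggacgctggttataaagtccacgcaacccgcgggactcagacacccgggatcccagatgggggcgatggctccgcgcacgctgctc
Tap1, chr17:34187306-34187605, plus strand: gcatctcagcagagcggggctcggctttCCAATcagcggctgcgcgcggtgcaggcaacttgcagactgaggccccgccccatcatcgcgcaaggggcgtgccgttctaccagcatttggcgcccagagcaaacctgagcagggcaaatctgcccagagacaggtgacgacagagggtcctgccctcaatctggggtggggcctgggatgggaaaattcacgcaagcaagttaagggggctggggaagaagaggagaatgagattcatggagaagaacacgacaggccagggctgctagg
Psmb8, chr17:34197945-34198244, plus strand: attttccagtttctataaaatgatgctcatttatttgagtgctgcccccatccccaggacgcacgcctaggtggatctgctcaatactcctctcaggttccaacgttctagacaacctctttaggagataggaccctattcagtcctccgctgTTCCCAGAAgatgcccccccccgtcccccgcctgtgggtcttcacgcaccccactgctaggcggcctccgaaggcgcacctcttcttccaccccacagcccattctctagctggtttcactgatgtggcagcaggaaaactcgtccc

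Positions are counted from the start site, with the base before it at -1. In B2m the ISRE match lay at -139 to -131 and the NF-kB match at -126 to -118. H2-K1 and H2-D1 shared a run of 47 identical bases, from -141 in H2-K1 and from -201 in H2-D1, which holds the capitalised NF-kB matches GGGGATTCCCC. The GAS match in Psmb8 lay at -97 to -89. Among the 8 promoters the CCAAT letters were found in 6 (37.4% of all 32851 promoters), the NF-kB letters in 3 (48.4%), the ISRE letters in 1 (8.56%), the GAS letters in 1 (8.30%) and the AP-1 letters in none (7.81%). A match is a stretch of letters in this window and not a measured binding site.

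After 18 h of LPS, Pol II was higher at all 10 genes in both genotypes, by 2.49-fold (Psmb10) to 9.22-fold (Nlrc5) in WT and by 1.80-fold (H2-D1) to 20.5-fold (Nlrc5) in KO, on the scale with 10 tags added to each value. Over all genes tested with limma, 33.2% were called higher in WT and 28.0% in KO at an adjusted p under 0.05. The median log2 change of the 10 genes was 1.74 in WT and 1.88 in KO; over all genes these medians were -0.00 and -0.18. H3K27ac at the start sites was also higher at all 10 genes in both genotypes, with a median log2 change of 1.44 in WT and 1.51 in KO. The corresponding shares of all genes were 23.5% and 18.4%. Within the Pol II results 8 of 10 genes had a larger log2 change than in H3K27ac in each genotype.

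**Figure D1:**
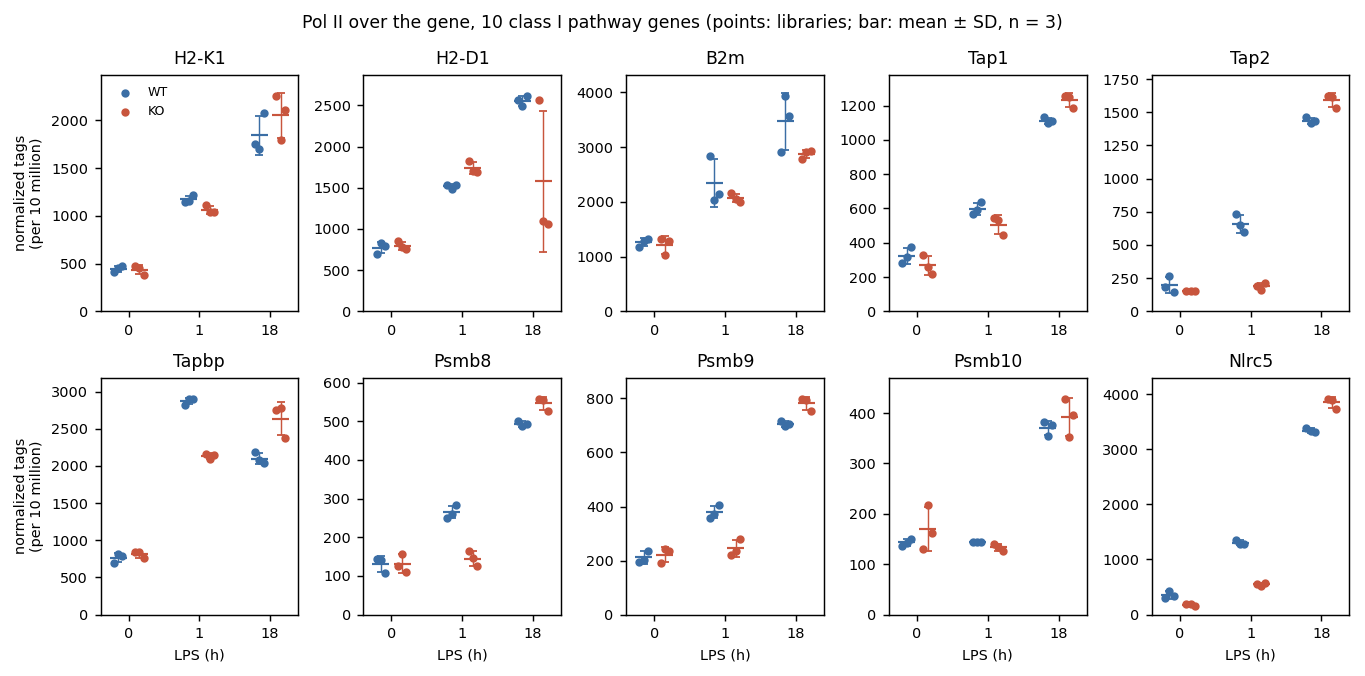
Pol II normalized tags over each of the 10 genes (vertical axis, linear from 0, per 10 M tags) at 0, 1 and 18 h of LPS (horizontal axis), WT in blue and KO in red; points are single libraries and bars are the mean ± SD (n = 3). At 18 h all libraries of all 10 genes lie above those of the same genotype at 0 h, and at 1 h the KO points of all except H2-D1 and B2m lie below the WT points.

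Over the gene body Nlrc5, the coactivator, had the largest log2 change at 18 h in both genotypes. Its Pol II value in WT was 304, 431 and 336 normalized tags at 0 h, 1351, 1275 and 1274 after 1 h and 3383, 3322 and 3304 after 18 h. The KO libraries gave 197, 186 and 153, then 558, 518 and 567, then 3906, 3900 and 3736. The groups did not overlap at any time: KO libraries were lower than WT at 0 h and 1 h and higher at 18 h, although the difference at 18 h was not called. At 18 h against 0 h the log2 change was 3.21 ± 0.10 (SE) in WT and 4.36 ± 0.10 in KO (adjusted p = 1.4e-14 and 1.4e-16). Within 500 bp of its start the change was 0.55 in WT and 0.28 in KO (adjusted p = 1.3e-05 and 0.0054), the smallest of the 10 genes in that window, although still called. At 18 h the WT density was 35.5 normalized tags per kb both in that window and over the gene, as 1 region covered both.

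Tap2 and Tap1 encode the 2 subunits of the peptide transporter. Tap2 in WT was 183, 265 and 148 normalized tags at 0 h, 730, 647 and 595 after 1 h and 1462, 1419 and 1432 after 18 h. KO libraries had 155, 153 and 150 at 0 h, 193, 164 and 211 after 1 h and 1622, 1619 and 1531 after 18 h. The genotypes overlapped at 0 h, and at 1 h the highest KO library was below the lowest WT library. Tap1 was 282, 317 and 373 at 0 h, 565, 589 and 637 after 1 h and 1131, 1098 and 1108 after 18 h in WT. The KO values of Tap1 were 329, 256 and 219, then 541, 534 and 443, then 1255, 1252 and 1185. All WT libraries at 1 h were above all KO libraries at 1 h, but the genotype difference of Tap1 was not called at any time. The log2 changes at 18 h were 2.83 in WT and 3.30 in KO for Tap2 and 1.76 and 2.18 for Tap1.

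Tapbp encodes tapasin, which holds the empty heavy chain at the transporter. It had its highest WT values at 1 h: 694, 812 and 785 normalized tags at 0 h, 2825, 2896 and 2897 after 1 h and 2182, 2076 and 2037 after 18 h. Tapbp in KO was 843, 837 and 760 at 0 h, 2160, 2087 and 2140 after 1 h and 2746, 2781 and 2375 after 18 h. The WT libraries therefore peaked at 1 h and the KO libraries at 18 h, with no overlap between the genotypes at either time. Tapbp was the 1 gene of the 10 in WT with a larger log2 change at 1 h (1.90) than at 18 h (1.45).

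The light chain and the classical heavy chains had the highest Pol II levels per kilobase (kb). B2m averaged 197 normalized tags per kb at 0 h, 366 at 1 h and 543 at 18 h in WT, and 189, 324 and 449 in KO, the highest level of the 10 genes in every group. Nlrc5, whose window is 93.9 kb long, had the lowest, from 1.91 per kb in KO at 0 h to 41.0 per kb in KO at 18 h. H2-K1 in WT was 408, 450 and 473 normalized tags at 0 h, 1150, 1159 and 1215 after 1 h and 1749, 1698 and 2081 after 18 h. In KO it was 474, 452 and 386 at 0 h, 1114, 1041 and 1037 after 1 h and 2255, 1794 and 2109 after 18 h. The H2-K1 genotypes overlapped at 0 h and 18 h, and at 1 h every KO library was below every WT library without a call. B2m libraries of the genotypes overlapped at all 3 times.

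H2-D1 was more uneven at 18 h. It was 701, 828 and 789 normalized tags in WT at 0 h, 1533, 1488 and 1536 after 1 h and 2563, 2491 and 2614 after 18 h. The KO libraries had 849, 780 and 760, then 1825, 1709 and 1692, then 2566, 1099 and 1066. KO replicate 1 at 18 h lay within the WT range and the other KO libraries lay below it. The deposited Pol II region over H2-D1 was 9.89 kb long in KO replicate 1 at 18 h and 31.9 kb and 31.8 kb in the other 2 KO libraries, against 10.0 to 10.3 kb in WT, so the tags of the longer regions were spread over more sequence. Over a window with 25 kb on each side, chr17:35237730-35292499, the 18 h values were 6406, 6356 and 6519 in WT and 6138, 6094 and 5893 in KO, and the log2 difference between genotypes was -0.09 (adjusted p = 0.46) instead of -0.82 (adjusted p = 0.010).

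The immunoproteasome subunits are Psmb8 (beta-5i), Psmb9 (beta-1i) and Psmb10 (beta-2i). Psmb8 in WT was 144, 141 and 108 normalized tags at 0 h, 251, 261 and 282 after 1 h and 502, 487 and 491 after 18 h. Psmb8 in KO was 127, 158 and 110 at 0 h, 164, 145 and 125 after 1 h and 557, 555 and 525 after 18 h. Psmb8 in KO at 1 h overlapped KO at 0 h, whereas WT at 1 h was above WT at 0 h in every library. Psmb9 in WT was 196, 202 and 237, then 359, 374 and 404, then 718, 697 and 704. KO gave 189, 242 and 234, then 220, 235 and 281, then 797, 795 and 752. The KO values of Psmb9 at 0 h and 1 h likewise overlapped, and the WT values did not. Psmb10 in WT was 136, 143 and 150, then 145, 144 and 144, then 382, 355 and 376. In KO it was 130, 217 and 162, then 141, 134 and 126, then 428, 352 and 397. Psmb10 thus overlapped between 0 h and 1 h in both genotypes and stood above both at 18 h.

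At 1 h of LPS, 9 of 10 genes were higher in Pol II in WT, where 18.6% of all genes were called higher, and 6 of 10 were higher in KO, where the share was 20.6%. The 9 genes in WT rose by a log2 change of 0.82 (Psmb9) to 1.90 (Tapbp), and the exception, Psmb10, was at 0.01 (adjusted p = 0.94). In KO, H2-K1, H2-D1, B2m, Tap1, Tapbp and Nlrc5 rose, by 0.78 to 1.57. Nlrc5 was instead called lower in KO at 1 h within 500 bp of its start (-0.29, adjusted p = 0.0031). Psmb10 was called lower (-0.30, adjusted p = 0.041), in a comparison where 62.2% of all genes were called lower. The changes of Psmb8 (0.13, adjusted p = 0.32), Psmb9 (0.14, adjusted p = 0.21) and Tap2 (0.29, adjusted p = 0.069) in KO did not pass the test. In the window of 500 bp on each side of the start Psmb9 was called higher (0.43, adjusted p = 6.01e-04) and Tap2 lower (-0.61, adjusted p = 0.044), and without replicate 2 of all groups Tap2 was called higher (0.38, adjusted p = 0.017).

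The early response stood against lower Pol II values at most genes. The values are shares of a library's tags, so a change in the total amount of bound Pol II was not measured. The median log2 change over all genes in the first hour was -0.82 in WT and -0.62 in KO, and all 10 genes were above that median in both genotypes. Among all genes 2457 were called higher and 9054 lower in WT, and 2736 and 8257 in KO. With each library centred on its median the splits were 4920 and 5060 in WT and 4818 and 5078 in KO, and the log2 changes of the 10 genes moved up by 0.80 and 0.57. On that scale all 10 genes were called higher in WT and 9 in KO, with Psmb10 at 0.28 (adjusted p = 0.069). The direction of Psmb10 in KO therefore depended on the scaling, and its call was also lost with no filter on low values, in the narrower window, with input subtracted, with the replicate block, and without replicate 2 or replicate 3 of all groups (adjusted p = 0.054 to 0.40).

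H3K27ac at the start sites was higher at all 10 genes at 1 h in both genotypes. The log2 changes ran from 0.82 (Psmb10) to 1.56 (Nlrc5) in WT and from 0.40 (B2m) to 1.34 (Nlrc5) in KO, with medians of 1.12 and 0.69 and shares of all genes called higher of 25.3% and 20.4%. Psmb10, whose Pol II value over a longer region did not rise at 1 h, gained H3K27ac from 372, 395 and 432 to 700, 690 and 754 normalized tags in WT. In KO it went from 465, 447 and 461 to 635, 725 and 656. Neither pair of groups overlapped. The change of H3K27ac from 0 h was larger at 18 h than at 1 h for all 10 genes in KO and for 9 in WT, where Nlrc5 (1.56 at 1 h and 1.39 at 18 h) was the exception. Around the RefSeq start of Tapbp the order was the opposite in both genotypes, with 2.17 at 1 h and 1.33 at 18 h in WT and 1.68 and 1.27 in KO.

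**Figure D2:**
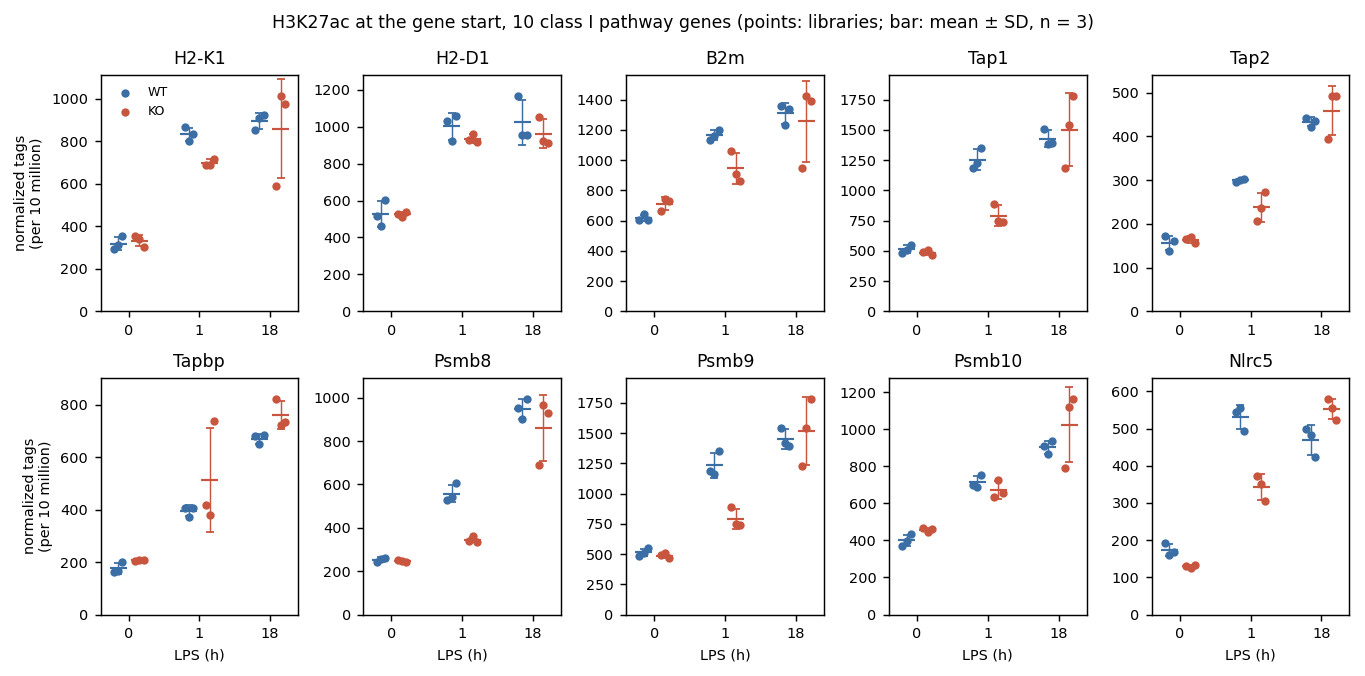
H3K27ac normalized tags within 2500 bp of each gene's start (vertical axis, linear from 0, per 10 M tags) at 0, 1 and 18 h of LPS (horizontal axis), WT in blue and KO in red; points are single libraries and bars are the mean ± SD (n = 3). At 1 h the KO points of all except H2-D1, Tapbp and Psmb10 lie below the WT points, and at 18 h the spread among KO libraries is wide for H2-K1, B2m, Tap1, Psmb8, Psmb9 and Psmb10, where 1 library lies below the others.

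Between genotypes, the largest set of differences was at 1 h. Pol II was lower in KO at 5 of the 10 genes: Tap2 (log2 difference -1.74 ± 0.14 SE, adjusted p = 7.6e-08), Nlrc5 (-1.23, 9.9e-08), Psmb8 (-0.83, 6.5e-05), Psmb9 (-0.61, 2.0e-04) and Tapbp (-0.43, 1.3e-04). None was higher. Psmb8 and Psmb9 differed by -0.20 each within 500 bp of their starts (adjusted p = 0.21 and 0.10), without a call. The same region covered both starts in each library at 1 h, so both differences come from the same values. Of all genes tested, 45.7% were called in either direction and 7.49% were called lower. The median log2 difference of the 10 genes was -0.33, against 0.24 over all genes, and all 10 lay below the latter. Among all genes 4618 were called higher and 905 lower in KO; with each library centred on its median these counts were 1910 and 2563, and 9 of the 10 genes, all except H2-D1, were then called lower.

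**Figure D3:**
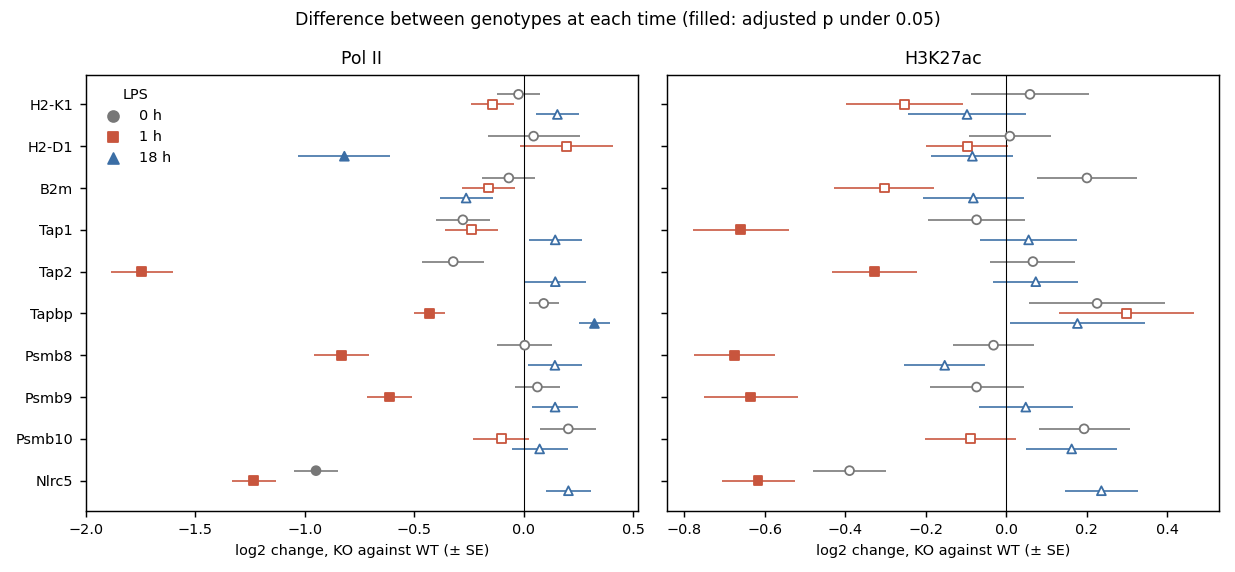
Log2 difference in normalized tags between KO and WT (horizontal axis) for each of the 10 genes (vertical axis) at 0 h (circles), 1 h (squares) and 18 h (triangles), with Pol II on the left and H3K27ac on the right on separate scales; bars are standard errors, filled symbols passed an adjusted p under 0.05, and the vertical line marks 0. Tap2 and Nlrc5 in Pol II at 1 h are farthest to the left, at -1.74 and -1.23.

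At 0 h the 1 gene of the 10 called in Pol II was Nlrc5, lower in KO by a log2 difference of -0.95 ± 0.10 (SE; adjusted p = 8.7e-06), where 6.96% of all genes were called. Within 500 bp of its start the direction turned (0.43, adjusted p = 0.0033), and the input was 47.8% of the KO value over the gene. At 18 h, 2 of 10 were called where 21.1% of all genes were: Tapbp was higher (0.32, adjusted p = 0.0028) and H2-D1 lower, as given above. The deposited region over Tapbp was longer in WT than in KO at that time. Over all genes the split at 18 h was 971 higher and 1730 lower, and 1960 and 999 after centring, when H2-K1, Nlrc5 and Tapbp were called higher and H2-D1 lower. The H2-D1 call was lost without replicate 2 or without replicate 3 of all groups, and the Tapbp call without replicate 2 (0.28, adjusted p = 0.098).

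Whether LPS acted differently by genotype was tested by the interaction of genotype and LPS. At 1 h the Pol II change from 0 h was smaller in KO for 4 of 10 genes: Tap2 (-1.42 ± 0.20 SE, adjusted p = 1.4e-04), Psmb8 (-0.84, 0.0038), Psmb9 (-0.67, 0.0045) and Tapbp (-0.52, 0.0016). Over all genes 18.4% were called in this test and 4.20% in the lower direction. When replicate 2 of all groups was left out, Tap2 was the 1 gene still called. The share of all genes called in that fit is not given here, so the count does not show how the differences moved. In the window of 500 bp on each side of the start the interaction was -0.50 for Psmb8 (adjusted p = 0.11) and -0.25 for Psmb9 (adjusted p = 0.30), neither called. At 18 h Nlrc5 had a larger change in KO (1.15 ± 0.14 SE, adjusted p = 3.8e-05), where 14.8% of all genes were called, but within 500 bp of its start the direction turned (-0.27, adjusted p = 0.21). Over all genes the splits of higher and lower were 1910 and 564 at 1 h and 658 and 1347 at 18 h, and centred they were 899 and 1744 at 1 h and 1330 and 767 at 18 h. On the centred scale Nlrc5 joined the 4 genes at 1 h, and Tap1, Tap2 and Tapbp joined Nlrc5 at 18 h.

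The extent of the deposited regions moved with these values. Over Nlrc5, 17.9% to 30.03% of the Pol II window was covered by a region in WT at 0 h and 8.93% to 9.30% in KO; at 1 h the cover was 53.1% to 58.5% in WT and 26.6% to 30.4% in KO, and at 18 h it was 100% in all libraries, in 1 region of 110.0 to 112.7 kb. Within 500 bp of the Nlrc5 start the Pol II value at 0 h was 21.1, 21.3 and 21.2 normalized tags in WT and 33.5, 29.0 and 34.0 in KO. The order of the genotypes in this window, which takes the density of the region there, was thus the opposite of that over the gene body (0.43, adjusted p = 0.0033). At 1 h the value in this window was 31.6, 33.5 and 32.6 in WT and 23.7, 22.9 and 26.97 in KO, lower in every KO library. The lower body value of Nlrc5 in KO at 0 h thus came with a shorter covered stretch, and the lower value at 1 h was present in both windows. How far the region search itself sets these values was not tested.

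**Figure D4:**
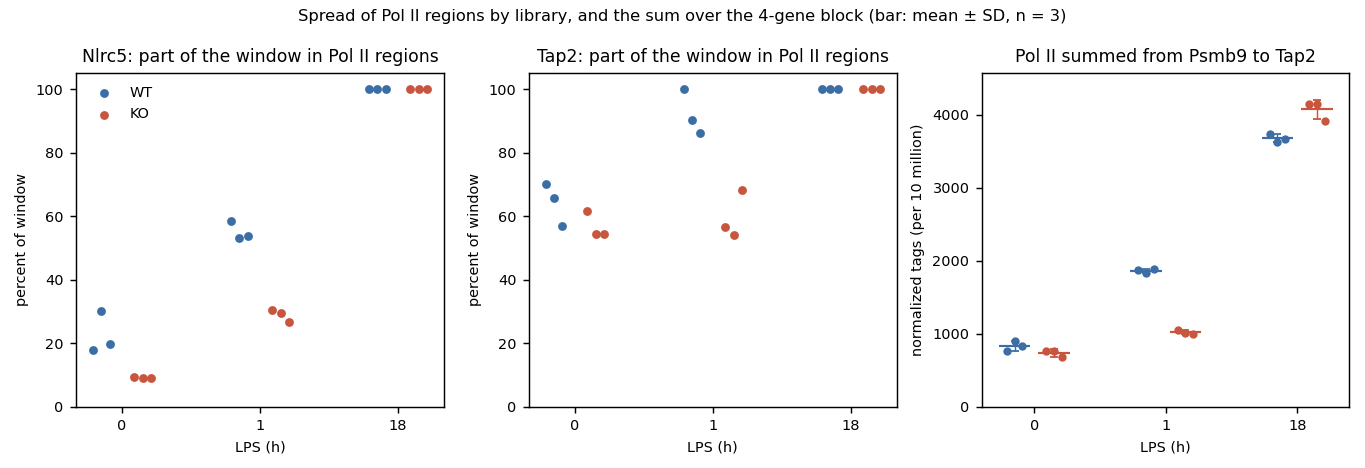
Share of the Pol II window of Nlrc5 (left) and Tap2 (middle) covered by a deposited region (vertical axis, percent) and Pol II normalized tags summed from Psmb9 to Tap2 (right, per 10 M tags) at 0, 1 and 18 h of LPS (horizontal axis); points are single libraries, WT in blue and KO in red, and bars on the right are the mean ± SD (n = 3). At 1 h the cover of Tap2 is 86.2% to 100% in WT and 54.2% to 68.4% in KO, and both genes are covered to 100% in all libraries at 18 h.

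The same held for the cluster from Psmb9 to Tap2. At 18 h all 6 libraries had 1 region of 41.5 to 42.2 kb over all 4 genes, so the densities of Psmb9, Tap1, Psmb8 and Tap2 were equal by construction (104 normalized tags per kb in WT and 115 in KO). At 1 h the regions over the cluster were 32.5 to 38.0 kb long in WT, whereas in KO those over Psmb9, Tap1 and Psmb8 were 15.2 to 18.9 kb and those over Tap2 6.84 to 7.79 kb. Summed over the block chr17:34181487-34216821, which does not depend on how tags are shared among the 4 genes, Pol II was 765, 905 and 828 at 0 h, 1870, 1835 and 1880 after 1 h and 3744, 3634 and 3669 after 18 h in WT. In KO it was 766, 763 and 677, then 1052, 1012 and 1001, then 4156, 4146 and 3922. The genotypes overlapped at 0 h, KO was lower in every library at 1 h and higher in every library at 18 h.

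On this block Pol II changed at 1 h by 1.15 (log2) in WT and 0.47 in KO (adjusted p = 2.2e-06), so the 4 genes together rose in KO too. The KO to WT difference at 1 h was -0.86 (adjusted p = 2.1e-08), and the interaction was -0.68 (adjusted p = 6.7e-05) at 1 h and 0.32 (adjusted p = 0.022) at 18 h. The genotype differences at 0 h (-0.18, adjusted p = 0.11) and at 18 h (0.15, adjusted p = 0.11) were not called. Within 500 bp of the start of Tap2, Pol II at 1 h was 53.0, 55.2 and 59.7 normalized tags in WT and 0, 2.50 and 12.1 in KO, where a 0 means that no region was found there.

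H3K27ac differed between genotypes at 1 h for 5 of 10 genes, all lower in KO, where 18.5% of all genes were called in either direction and 7.40% lower. These were Psmb8 (-0.67 ± 0.10 SE, adjusted p = 0.0010), Tap1 (-0.66, 0.0031), Psmb9 (-0.64, 0.0033), Nlrc5 (-0.62, 8.7e-04) and Tap2 (-0.33, 0.043), so 4 genes (Psmb8, Psmb9, Tap2 and Nlrc5) were called lower in KO with both antibodies at this time, where the Pol II calls of Psmb8 and Psmb9 held over the gene body and not within 500 bp of the start. The H3K27ac call of Tap2 was near the threshold and was lost in 8 of the 15 alternatives run, among them no filter on low values (adjusted p = 0.081) and the narrower window (-0.26, adjusted p = 0.15). The H3K27ac call of Nlrc5 was also lost in the narrower window (-0.35, adjusted p = 0.11). Psmb8 at 1 h was 529, 540 and 605 normalized tags in WT and 341, 360 and 335 in KO. Nlrc5 at 1 h was 543, 554 and 493 in WT and 372, 352 and 305 in KO. Tap1 at 1 h was 1185, 1226 and 1350 in WT and 888, 749 and 737 in KO. None of these 3 pairs of groups overlapped.

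At 0 h and at 18 h none of the 10 genes was called in H3K27ac with limma, with 1 gene at an unadjusted p under 0.05 at each time, Nlrc5, where 0.770% and 3.24% of all genes were called. Nlrc5 at 0 h was 191, 160 and 168 in WT and 131, 126 and 132 in KO (log2 difference -0.39, adjusted p = 0.062), and at 18 h it was 500, 482 and 423 in WT and 579, 556 and 523 in KO. The order of the genotypes at Nlrc5 thus turned between 1 h and 18 h, without overlap at either time, and its interaction at 18 h was 0.63 ± 0.13 (SE; adjusted p = 0.036), where 0.630% of all genes were called. This call was lost without replicate 2 or without replicate 3 of all groups. At 1 h no interaction was called among the 10 genes, with 5 at an unadjusted p under 0.05 and 0.543% of all genes called; Psmb8 was nearest, at -0.64 (adjusted p = 0.058). Centring moved the split of all genes at 1 h between genotypes from 1311 higher and 875 lower to 1089 and 1315 and left 5 of the 10 genes called lower.

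In H3K27ac, KO replicate 1 at 1 h and KO replicate 1 at 18 h stood apart from their groups, with a correlation across genes of 0.910 to 0.914 with the other replicates against 0.986 to 0.994 for the 14 other pairs. At 18 h KO replicate 1 was the lowest of its group for H2-K1 (591, against 1013 and 975), B2m (950, against 1424 and 1394), Psmb8 (688, against 964 and 930), Psmb10 (792, against 1119 and 1161), Tap1 (1186, against 1544 and 1780), Psmb9 (1224, against 1544 and 1780) and Tap2 (393, against 492 and 492). Without KO replicate 1 at 1 h, B2m, Nlrc5, Psmb8, Psmb9 and Tap1 were called lower in KO, where 18.4% of all genes were then called lower, and 4 genes (B2m, Psmb8, Psmb9 and Tap1) were called in the interaction, where 29.9% of all genes were. Without KO replicate 1 at 18 h, Psmb10 was called higher in KO at 18 h, with 4.77% of all genes called. With replicate 1 as the only KO library at 1 h, Nlrc5 and Psmb8 were called, with 2.15% of all genes, on the assumption that the lone library varies like the other groups. Without replicate 2 or without replicate 3 of all groups no gene of the 10 was called between genotypes at 1 h. The share of all genes called in those fits is not given here, and a lost call does not give the size of a difference. For Tapbp, KO replicate 3 at 1 h (739, against 416 and 379) stood above the rest of its group, and the group overlapped WT (408, 373 and 407). The Tapbp difference of 0.30 in this window, nearly all of it shared with Zbtb22, was not called, and around the RefSeq start of Tapbp, 3579 bp away, it turned to -0.43 (adjusted p = 0.053).

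The input libraries gave the background of these windows. At 0 h, 9 of 20 input values over the Pol II windows were 0, and over all times the highest was 195.7 normalized tags. As a share of the mean Pol II value, the input was highest for Nlrc5 in KO at 0 h (47.8%) and for Psmb10 in WT at 1 h (19.1%). Over the H3K27ac windows the highest share was 11.3% (Tapbp in KO at 0 h).

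Each inducible proteasome subunit was also set against the constitutive subunit that holds the same catalytic site, a ratio within a library, with 10 tags added to each value. The log2 ratio of Psmb8 to Psmb5 in WT went from 0.07, -0.19 and -0.34 at 0 h to 1.05, 1.36 and 1.24 after 1 h and 0.70, 0.65 and 0.93 after 18 h. In KO it was -0.05, 0.18 and -0.32, then 0.24, 0.41 and -0.19, then 1.15, 0.71 and 1.06. WT libraries at 1 h stood above all those at 0 h, and KO libraries at these times overlapped. Averaged over the genotypes the ratio rose by 0.79 at 1 h (1.37 in WT and 0.22 in KO) and 0.97 at 18 h (exact two-sided permutation test within genotype, 400 relabelings, adjusted p = 0.03 and 0.01 over 6 tests; the smallest unadjusted p is 0.005). The ratio within 500 bp of the starts was 0.23 at 1 h (adjusted p = 0.33) and 0.39 at 18 h (adjusted p = 0.03), and with input subtracted the 1 h call was lost (0.85, adjusted p = 0.06).

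The other subunits changed their ratio at 18 h. Psmb9 to Psmb6 rose by 1.28 and Psmb10 to Psmb7 by 1.40 at 18 h (exact permutation test, adjusted p = 0.01 for both). At 1 h the difference was -0.37 (adjusted p = 0.06) for Psmb9 to Psmb6, from -0.00 in WT and -0.74 in KO, and -0.05 (adjusted p = 0.845) for Psmb10 to Psmb7. Psmb6, the constitutive beta-1 subunit, itself gained Pol II at 1 h, from 228, 250 and 238 normalized tags to 430, 437 and 420 in WT, and all WT libraries at 1 h were above those at 0 h. Psmb5, the constitutive beta-5 subunit, was called lower at 1 h in WT, from 136, 162 and 139.5 to 116, 95.6 and 114 (-0.40, adjusted p = 0.011, against a median of -0.82 over all genes), so part of the Psmb8 to Psmb5 change in WT came from its denominator. Whether the ratios differed between genotypes was not tested.

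**Figure D5:**
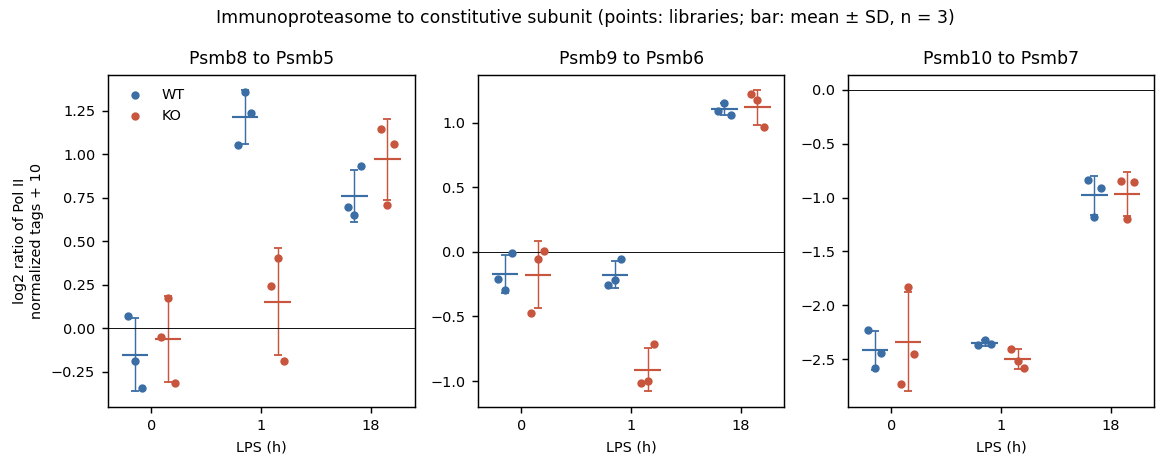
Log2 ratio of Pol II normalized tags (10 added to each) of an inducible to its constitutive proteasome subunit (vertical axis, a separate scale in each panel) at 0, 1 and 18 h of LPS (horizontal axis), WT in blue and KO in red; points are single libraries and bars are the mean ± SD (n = 3). All 3 ratios are higher at 18 h than at 0 h in both genotypes, and at 1 h the Psmb8 to Psmb5 ratio of WT lies at 1.05 to 1.36 and that of KO at -0.19 to 0.41.

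Other genes of the pathway were taken from 4 lists. Among other class I heavy chains, including the nonclassical H2-Q, H2-T and H2-M genes, 10 of 13 could be tested after LPS (H2-T10 was not matched by symbol in the annotation), and at 18 h all 10 were higher in Pol II in WT and in KO, where 33.2% and 28.0% of all genes were called higher. The largest change was at H2-Q7, from 0, 6.25 and 0 normalized tags at 0 h to 592, 608 and 726 at 18 h in WT (log2 change 5.79 on the scale with 10 tags added) and from 8.53, 8.52 and 8.11 to 862, 859 and 803 in KO (5.53). H2-Q7 and its neighbour H2-Q6 are near-identical copies, so the split of reads between them is uncertain. H2-T22 went from 120, 87.4 and 151 to 1510, 1516 and 1509 in WT and from 127, 134 and 128 to 1689, 1697 and 1672 in KO. Neither gene's groups at 0 h and 18 h overlapped. At 1 h between genotypes, 5 of the 10 were called higher and 2 lower in KO, where 38.2% of all genes were called higher and 7.49% lower; Mr1, which presents vitamin B metabolites, was higher (1.497, adjusted p = 9.3e-06) and H2-T22 lower (-0.86, adjusted p = 0.0069). The Mr1 difference was 0.00 after the input was subtracted, and the H2-T22 difference was -0.42 (adjusted p = 0.13) without replicate 1 and -0.95 (adjusted p = 0.054) without replicate 3 of all groups, and -0.22 (adjusted p = 0.48) within 500 bp of the start.

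Of the 6 genes of peptide loading and trimming, 5 in WT and 4 in KO were higher in Pol II at 18 h, and none was lower, where 33.2% of all genes in WT and 28.0% in KO were called higher and 33.3% and 42.1% lower. Tapbpl, the tapasin relative TAPBPR, rose by 1.64 in WT and 1.95 in KO, and Erap1, the aminopeptidase that trims peptides in the endoplasmic reticulum, by 0.88 and 1.59. Within 500 bp of their starts neither gene's Pol II was higher at 18 h, and Erap1 in KO was called lower there (-0.68, adjusted p = 0.014). Of the 7 other proteasome genes, 4 were higher at 18 h in each genotype, 0 were lower in WT and 2 in KO, against the same shares of all genes. Among them were Psme1 and Psme2, the 2 subunits of the PA28 activator, with log2 changes of 1.29 and 1.30 in WT and 1.49 and 1.19 in KO. Between genotypes none of the 7 was called in Pol II with limma at 0, 1 or 18 h.

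Among 10 regulators of class I transcription, 3 were called in Pol II between genotypes at 0 h (1 higher and 2 lower in KO) and 6 at 1 h (4 higher and 2 lower), where 6.96% and 45.7% of all genes were called. Irf8, a macrophage and interferon-response factor, was 1195, 1167 and 1282 normalized tags in WT and 534, 509 and 485 in KO at 1 h (-1.24, adjusted p = 2.1e-10; interaction -1.21, adjusted p = 1.4e-07). Irf1 was 846, 995 and 996 in WT and 612, 607 and 638 in KO at 0 h (-0.60, adjusted p = 1.2e-04). In both of these comparisons all KO libraries were below all WT libraries.

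Ciita, the class II counterpart of Nlrc5, had the opposite order of genotypes to Nlrc5 over the gene at 1 h, and the same order at 0 h and 18 h. It was 46.0, 29.9 and 31.3 normalized tags in WT and 5.18, 6.25 and 22.7 in KO at 0 h (-1.17, adjusted p = 0.0030), and 738, 668 and 766 in WT and 1126, 1132 and 1088 in KO at 1 h. At 18 h it was 37.7, 59.7 and 52.4 in WT and 117, 137 and 152 in KO, and its interaction at 18 h was 2.46 (adjusted p = 5.3e-05). KO was thus the lower group at 0 h and the higher group at 1 h and 18 h. The 0 h difference was not called without replicate 1 or without replicate 2 of all groups.

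The genes whose Pol II pattern was most like that of the 10 were sought among 10335 other genes by Pearson's r over the 18 Pol II libraries, which share 6 groups. The mean of the 10 genes was most like Dhx58 (r = 0.995), Patl2, Fgl2, Xaf1 and Setdb2 (each r = 0.994); Patl2 holds the B2m window and is not a separate measurement. Nlrc5 was most like Ifi47 (0.992), Ifi209 (0.991), Setdb2, Xaf1 and Irgm1. Ifi47 had means of 327.6, 1054 and 1909 normalized tags in WT and 249.4, 563.5 and 2306 in KO at 0, 1 and 18 h, the same order of genotypes as Nlrc5 at each time. Ifi209 had means of 150.7, 886 and 3187 in WT and 34.3, 190.5 and 2571 in KO, so at 18 h its order was the opposite of that of Nlrc5. Among the 10 genes the pair correlations ran from 0.376 (Tapbp and Psmb10) to 0.980 (Tap2 and Psmb8), the latter within the shared cluster. These values describe the same libraries and are given without a test.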

How the data were processed

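Skewer trimming and HISAT2 2.1.0 alignment to mm10 were done by the authors, who removed duplicates and searched each library separately for regions with HOMER, without input control. Per the file headers, 500 bp windows at a Poisson p of 0.001 were stitched when under 1000 bp apart, and the deposited signal is the number of tags per 10 M tags of the library; a region not found counted as 0. The other deposited columns were not used here.

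Tags were shared by overlap over each gene (GENCODE vM21; 54 genes with shared symbols left out). Values were compared as log2(normalized tags + 10), which understates changes of low genes, with limma 3.58.1 in R 4.3.3 (intensity trend, 6 group means over the 18 libraries of an antibody). A gene entered a comparison when at least 2 of 3 libraries in either group had a region there, and p-values were adjusted over all genes tested (Benjamini-Hochberg). The script was tested on simulated data. The members, lists and named genes were chosen with earlier results of these data known: all 10 members, Nr4a1, the constitutive subunits, up to 3 called genes per list and comparison with the largest change, and the 5 genes of most like pattern with group means spanning more than 1 on the log2 scale. The RefSeq start, the summed block and the window with 25 kb on each side were added after seeing the data. Alternatives were the pseudocount, filter, centring, window, input subtraction, variance trend, replicate block and left-out libraries. A result of 1 gene from the lists is not reported here.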

Additional observations from a re-analysis of the deposited data

Results flagged for a closer look

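A change with LPS that differed between the genotypes, by the test of the difference itself, was found for 4 genes in Pol II at 1 h. The log2 change from 0 h to 1 h was smaller in KO than in WT by 1.42 on the log2 scale for Tap2 (interaction -1.42), and the interaction was -0.84 for Psmb8, -0.67 for Psmb9 and -0.52 for Tapbp. Within 500 bp of the starts those of Psmb8 (-0.50) and Psmb9 (-0.25) were not called. For Tap2, Psmb8 and Psmb9 the length of the deposited regions over the cluster moved with these values, as given above.

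At 18 h the difference was in the other direction for Nlrc5, the class I coactivator. Its Pol II change from 0 h to 18 h was larger in KO by 1.15 on the log2 scale and its H3K27ac change by 0.63. Within 500 bp of the start the Pol II difference turned to -0.27 (adjusted p = 0.21) with KO higher than WT at 0 h. The H3K27ac call was lost in the narrower window (adjusted p = 0.32), without the intensity trend (0.055) and without replicate 2 (0.53) or replicate 3 (0.43) of all groups. At 18 h itself KO and WT differed by no called amount with either antibody in the fit used above. With libraries centred on their median, Nlrc5 was called higher in KO in Pol II at 18 h. In KO at 0 h the input was 47.8% of the Pol II value over the gene.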

How the results depend on the processing

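The number of the 10 genes called after LPS stayed within 1.5 times its value under every alternative run for both antibodies. Between genotypes in Pol II the number at 0 h was 2 without replicate 1 (1 to 2 over the left-out replicates); at 1 h it was 9 with libraries centred on their median and 3 in the narrower window; at 18 h it was 4 when centred and 0 to 3 over the left-out replicates. For the interaction in Pol II it was 1 to 4 at 1 h over the left-out replicates, and at 18 h 4 when centred, 0 in the narrower window, 3 with input subtracted and 1 to 3 over the left-out replicates. For H3K27ac between genotypes it was 1 at 0 h with pseudocount 1, when centred and with the replicate block; at 1 h 3 in the narrower window, 0 to 7 over the left-out replicates and 2 with KO replicate 1 alone; at 18 h 1 with input subtracted, 0 to 1 over the left-out replicates and 3 with KO replicate 1 alone. For the interaction in H3K27ac it was 1 at 1 h with input subtracted and 0 to 5 over the left-out replicates, and at 18 h 0 in the narrower window and without the intensity trend, 0 to 1 over the left-out replicates and 5 with KO replicate 1 alone. The share of all genes called also moved between settings and is not given beside each count. For the interaction in H3K27ac at 1 h it was 0.543%, and 29.9% without KO replicate 1 at 1 h. The counts are therefore not read as results about the 10 genes, and the cause of these changes was not tested.

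The Psmb8 to Psmb5 ratio at 1 h was 0.23 in the narrower window and 0.85 with input subtracted (exact permutation test, adjusted p = 0.33 and 0.06) and 0.75 to 0.87 over the left-out replicates. The ratios at 18 h were 0.80 to 1.12 for Psmb8 to Psmb5 (0.39 in the narrower window, adjusted p = 0.03), 1.18 to 1.42 for Psmb9 to Psmb6 and 1.29 to 1.60 for Psmb10 to Psmb7 over the left-out replicates, where 36 relabelings cannot reach an adjusted p under 0.05. Psmb10 to Psmb7 at 1 h turned to 0.044 in the narrower window and was -0.12 to 0.036 over the left-out replicates.

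Directions that turned in the narrower window, 500 bp on each side of the start, included Nlrc5 in KO at 1 h (-0.29), between genotypes at 0 h (0.43) and in the interaction at 18 h (-0.27), Tap2 (-0.61) and Psmb8 (-0.026) in KO at 1 h, and Tapbpl (-0.13 in WT, -0.045 in KO) and Erap1 (-0.46, -0.68) at 18 h. Some differences called in neither window also turned. In Pol II these included Tap1 between genotypes at 0 h (-0.28 to 0.05) and in the interaction at 1 h (0.04 to -0.25), and Psmb8 in the interaction at 18 h (0.14 to -0.16). In H3K27ac they included Tapbp between genotypes at 1 h (0.30 to -0.08) and Nlrc5 in the interaction at 1 h (-0.23 to 0.05). With input subtracted Psmb10 in WT at 1 h (-0.27) and Psmb8 in KO at 1 h (-0.037) turned, Psmb10 in KO at 1 h turned to 0.28 when centred, and Psmb10 in WT at 1 h was -0.026 to 0.047 over the left-out replicates. At 1 h Psmb8 and Psmb9 in the narrower window, where they share the density of the same region, differed between genotypes by -0.20 each and were not called. The Tapbp H3K27ac difference at 1 h turned from 0.30 to -0.43 when taken from its RefSeq start. Replicate numbers did not pair the libraries: deviations of same-numbered libraries correlated at -0.071 to 0.107 over 45 pairs in Pol II and -0.43 to 0.079 in H3K27ac. The lowest values in H3K27ac were those of KO at 1 h against KO at 18 h (-0.43, -0.35 and -0.42 for replicates 1, 2 and 3), and all others were -0.081 or above. In both of these groups KO replicate 1 stood apart, and the cause was not tested. With the replicate block the 1 gene called in H3K27ac at 0 h was Nlrc5, and Psmb10 in KO at 1 h was no longer called in Pol II, nor Tap2 between genotypes at 1 h in H3K27ac (-0.33, adjusted p = 0.056).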
